A study of Homo sapiens with 8 samples.

Results

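The human genes TAT, HPD, HGD, FAH and TDO2, which encode enzymes of aromatic amino acid breakdown, were examined for open chromatin in HepG2 cells. They were taken as a list of 5 among the 20033 protein-coding genes of GENCODE 44 on chromosomes 1-22, X and Y. A peak was assigned to a gene when its summit fell in the gene body or within 50 kb of it. It was then classed as TSS (within 1000 bp of the canonical transcription start site), gene body or flank. By this rule 44 of the 60474 peaks on these chromosomes lay at the 5 genes, with 4 at a TSS, 8 in a gene body and 32 in a flank. The study performed bulk ATAC-seq, in which the Tn5 transposase inserts sequencing adapters into accessible DNA, on 8 libraries of HepG2, a liver cancer cell line of hepatocyte character (wild-type genotype in the sample records). The libraries combined 0.1, 0.5, 1 or 5% formaldehyde (FA) with cryopreservation or flash freezing, to learn how preservation affects data quality. Peaks of the cryopreserved library fixed with 0.1% FA were analysed, and the other libraries were not analysed here. With 1 library there was no replicate, so values carry no replicate error and no test between conditions was made.

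In hepatocytes, tyrosine is degraded to fumarate and acetoacetate. TAT (tyrosine aminotransferase) opens the path, HPD (4-hydroxyphenylpyruvate dioxygenase) makes homogentisate, HGD (homogentisate dioxygenase) opens its ring, and FAH (fumarylacetoacetase) releases the end products. TDO2 (tryptophan dioxygenase) starts the kynurenine path from tryptophan. Loss of TAT, HPD or FAH causes hereditary tyrosinemias, and loss of HGD causes alkaptonuria. TAT and TDO2 are known in liver as genes induced by glucocorticoids, and in the rat Tat is controlled by enhancers upstream of its start.

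The sequences below come from peaks on which the description turns: the strongest TSS peak of FAH, the gene body peak of highest fold at TAT, HPD and FAH, and the flank peak of highest fold at no TSS for TAT and FAH. The corresponding flank peak of HPD, in SETD1B, held no exact match to the motifs searched and is not shown. The HGD intron 1 peak and the TDO2 flank peak at no TSS, also without a match, are not shown either. Nor is the HGD flank peak 11361 bp upstream, which held a match. Every stretch shown holds a match, so the display does not represent all peaks of these genes. The stretches are written in the direction of the gene (GRCh38), as the 60 bases to either side of the summit unless stated. Capitals mark matches to 16 short motifs, of which only those lying wholly within 50 bp of the summit were counted. The peak in intron 4 of TAT, at chr16:71572909-71573029 on the minus strand, held the FOXA motif in reverse 3 bp from its summit. A match to the AP-1 motif at the end of the stretch lay too far out to be counted. FOXA proteins are pioneer factors of liver chromatin.
TAT intron 4: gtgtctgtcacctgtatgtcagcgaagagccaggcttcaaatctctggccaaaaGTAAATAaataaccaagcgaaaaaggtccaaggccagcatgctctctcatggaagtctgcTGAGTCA
The peak upstream of TAT, at chr16:71581934-71582054 on the minus strand, held a nuclear receptor motif beyond the counted window.
TAT upstream: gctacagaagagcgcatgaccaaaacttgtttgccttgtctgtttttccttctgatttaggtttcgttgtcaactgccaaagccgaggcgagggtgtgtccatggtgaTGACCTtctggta
The peak in the first part of the longer HPD transcript, at chr12:121860304-121860424 on the minus strand, held overlapping FOXA and NFY motifs.
HPD gene body: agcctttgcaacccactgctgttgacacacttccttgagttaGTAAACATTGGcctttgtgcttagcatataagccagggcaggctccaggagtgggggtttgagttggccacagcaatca
The FAH stretch at chr15:80152946-80152975 on the plus strand begins just downstream of the summit and was limited to the 30 bases around its matches, because the summit lay in the annotated untranslated region of another FAH transcript. It held a pair of SP/KLF motifs, the GC box of many constitutive promoters.
FAH TSS: ccgtggGGGCGGgcagggGGGCGGggccgg
The peak in intron 7 of FAH, at chr15:80171981-80172101 on the plus strand, held nuclear receptor motifs, of which 1 lay within the counted window.
FAH intron 7: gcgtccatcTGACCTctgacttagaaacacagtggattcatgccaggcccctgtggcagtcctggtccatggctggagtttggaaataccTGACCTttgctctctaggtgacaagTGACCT
The peak downstream of FAH, at chr15:80192342-80192462 on the plus strand, held in reverse, 16 bp from its summit, the motif of HNF4A, a nuclear receptor that maintains hepatocyte genes.
FAH downstream: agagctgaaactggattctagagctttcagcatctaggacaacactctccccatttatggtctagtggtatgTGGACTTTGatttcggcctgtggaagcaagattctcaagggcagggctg

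Of the 5 genes, 3 (HPD, HGD and FAH) had a TSS peak, against 61.0% of protein-coding genes. A gene body peak was present at 4 of 5, against 49.5% of protein-coding genes, and a flank peak at 5 of 5, against 87.7%. TDO2 alone had neither a TSS nor a gene body peak, a state found at 23.6% of protein-coding genes. The exact binomial 95% interval of 3 of 5 is 14.7 to 94.7%, so the TSS count cannot be told apart from the background. No interval was computed for the other counts, which also rest on only 5 genes. The number of peaks differed more than the presence of a TSS peak. HPD had 15, TAT 13, FAH 8, HGD 6 and TDO2 2, and the genes differ in length (11.4 kb for TAT, 24.1 kb for HPD, 54.1 kb for HGD, 34.5 kb for FAH and 65.7 kb for TDO2). Per 100 kb of gene and flanks, HPD had 12.1 peaks and TAT 11.7, densities above those of 95.5% and 94.6% of protein-coding genes. FAH had 5.95 and HGD 3.89 peaks per 100 kb, against a median of 3.98 over protein-coding genes. TDO2 had 1.21 and stood above only 17.6% of them. Of the 32 flank peaks, 10 lay at the TSS of another gene, 6 of these beside HPD, so that flank counts also describe the neighbourhood.

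**Figure D1:**
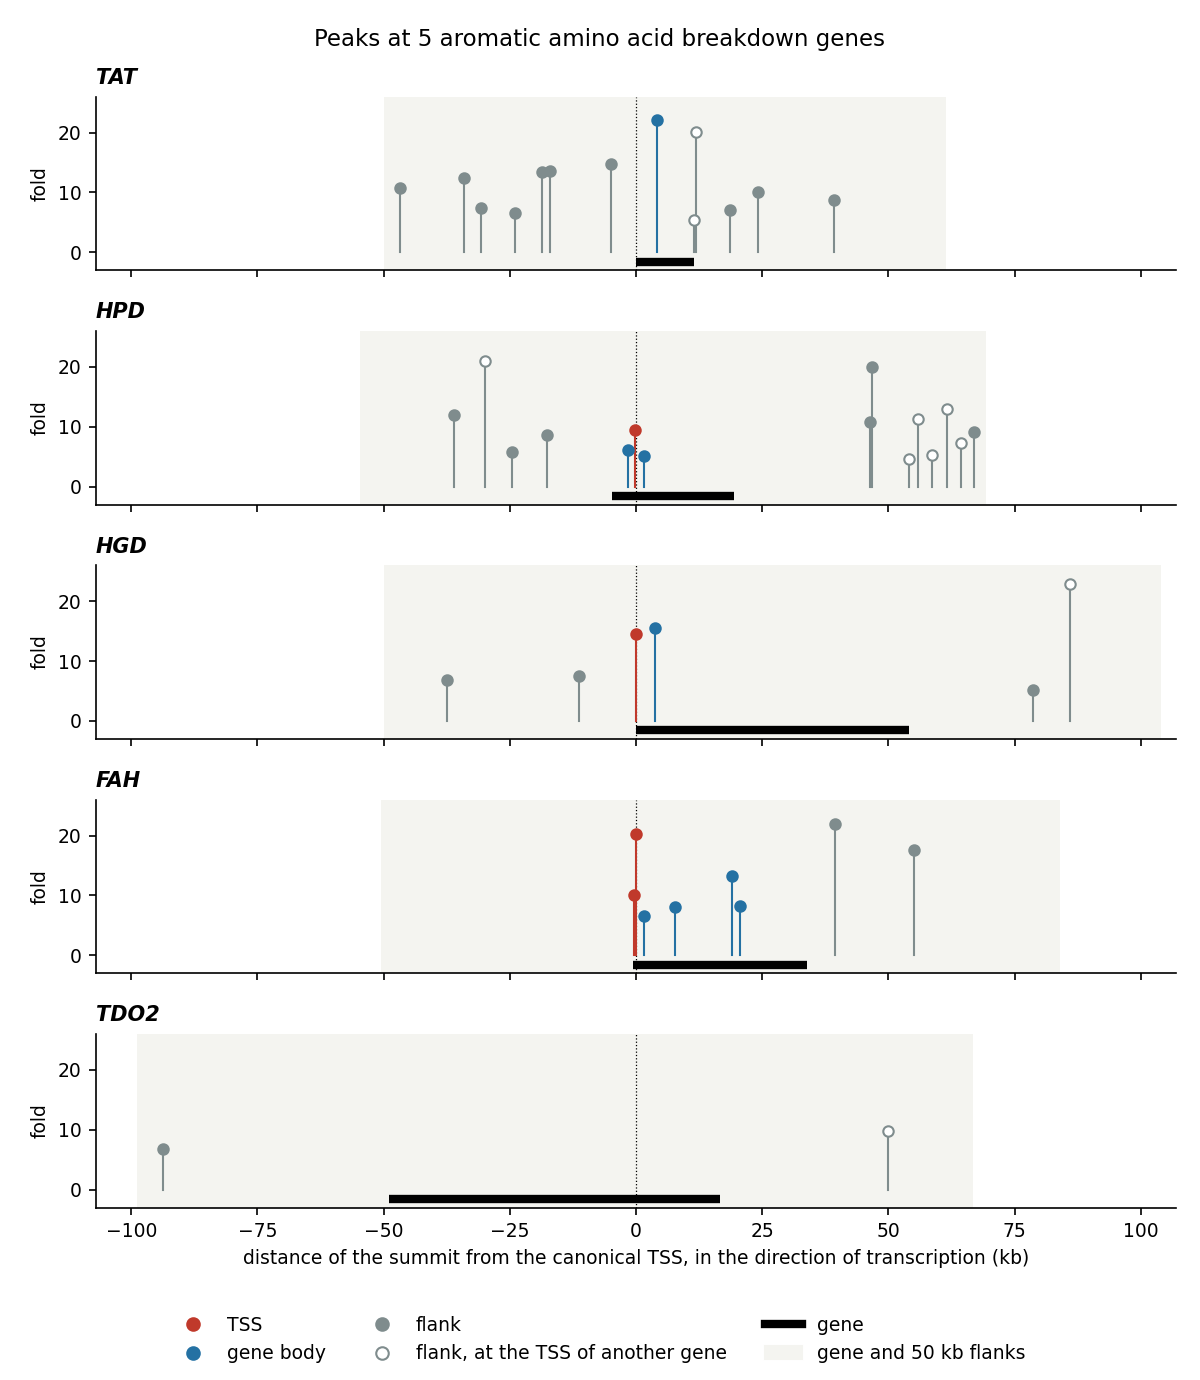
Peaks at the 5 genes by distance of the summit from the canonical TSS (kb, in the direction of transcription) and by fold enrichment at the summit, in 1 library. Stems are single peaks coloured by class, open circles lie at the TSS of another gene, and the shaded span is the gene with its 50 kb flanks. TAT and TDO2 have no TSS peak, and the TDO2 span holds only 2 peaks.

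Each peak carries its fold enrichment, the ratio of fragments to local background at the summit with 1 added to both, and a -log10 q-value from the peak caller. From that fold and the deposited -log10 p, the fragments at the summit were recovered, and for all 44 peaks they came out whole within 0.01. They are given with exact Poisson 95% intervals, which cover counting error only.

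TAT, which transfers the amino group of tyrosine, occupies, on the minus strand of chromosome 16, positions 71565660 to 71577092 (ENSG00000198650.11) and had no peak at its TSS at 71577092. No peak lay within 1000 bp of any of its 4 annotated transcript starts. The nearest summit was 4123 bp inside the gene, in intron 4, and 68.7% of protein-coding genes had a closer one. This intronic peak (71572895 to 71573073) had the highest fold at the gene. It had a fold of 22.1, above that of 91.3% of all peaks, a -log10 q of 46.9 and 37 fragments (26.1 to 51.0) over a background of 0.721. Its summit also lay within TAT-AS1, an antisense non-coding gene that runs across TAT, so the peak cannot be assigned to either from its position.

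Upstream of TAT, the nearest peak (71581752 to 71582140) had its summit 4902 bp from the TSS, with a fold of 14.8, a -log10 q of 32.0 and 33 fragments (22.7 to 46.3). The interval without a summit across the TSS was thus 9.03 kb long, against a median of 29.3 kb over protein-coding genes. Peaks of similar height followed at 17128 and 18593 bp upstream, with folds of 13.5 and 13.4 and 30 fragments each. For the nearer of them, another whole number of fragments also solved the deposited values. Weaker peaks lay at 23910 bp (fold 6.52), 30789 bp (7.33), 34127 bp (12.4) and 46689 bp (10.8) upstream. The upstream flank therefore held 7 peaks, none at the TSS of another gene. Downstream, the highest fold of 20.2, with 44 fragments (32.0 to 59.1), was at the TSS of TAT-AS1, 11965 bp from the TAT start. A second peak at the same TSS had a fold of 5.41 with 11 fragments. Peaks at 18675, 24193 and 39224 bp downstream, within ZNF19, had folds of 7.02, 10.0 and 8.79 and 8 to 12 fragments. The summit at 39224 bp also lay in an annotated untranslated exon of CHST4.

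HPD, the dioxygenase blocked by the drug nitisinone, occupies, on the minus strand of chromosome 12, positions 121839527 to 121863596 (ENSG00000158104.11). Its TSS peak (121858869 to 121859493) was broad and of modest height. It spanned 625 bp, wider than 99.3% of all peaks, with the summit 190 bp upstream of the TSS at 121858859 and a -log10 q of 22.5. Its fold of 9.48, with 33 fragments (22.7 to 46.3), exceeded that of 11.7% of the 12229 protein-coding genes whose TSS had a peak. The summit lay in an annotated untranslated exon of another HPD transcript, and 3 of the 4 transcript starts had a peak within 1000 bp. Weaker peaks stood to either side. That at 1509 bp downstream, in coding exon 4 (121857309 to 121857667), had a fold of 5.07 and 17 fragments (9.90 to 27.2), and lay 233 bp after the start of another HPD transcript. That at 1505 bp upstream, inside the longer HPD transcript (121860332 to 121860449), had a fold of 6.14 and 21 fragments (13.0 to 32.1). The 3 peaks had local backgrounds of 2.55 to 2.59 fragments, against a median of 0.582 over all peaks.

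The strongest peaks in the HPD span belonged to its neighbourhood. The highest fold was 21.0, with 47 fragments (34.5 to 62.5), at the TSS of PSMD9, a proteasome assembly gene 29843 bp upstream that shares this window with ENSG00000256950, annotated as protein-coding, and the non-coding ENSG00000287493. Next came a fold of 20.0, with 40 fragments (28.6 to 54.5), in an intron of the histone methyltransferase gene SETD1B, 46742 bp downstream. A further SETD1B peak 471 bp away had a fold of 10.8. Between these and the peak in exon 4 of HPD, 44.8 kb held no summit, a stretch that includes most of the HPD gene. Over 50 kb downstream, 6 peaks spread over SETD1B, LINC01089, ENSG00000272849, ENSG00000274292 and RHOF had folds of 4.66 to 12.9. They also had 17 to 80 fragments and local backgrounds of 2.74 to 5.27, the lowest of which was above the background of 93.6% of all peaks. Upstream, the peaks at no TSS, at 17711, 24546 and 35979 bp, had folds of 8.59, 5.82 and 11.9.

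HGD, which opens the ring of homogentisate, occupies, on the minus strand of chromosome 3, positions 120628172 to 120682269 (ENSG00000113924.12). It had a compact pair of peaks at its 5′ end and none in the rest of the gene. The TSS peak (120682126 to 120682388) had its summit 49 bp upstream of the TSS at 120682239, with a fold of 14.5, a -log10 q of 36.9 and 41 fragments (29.4 to 55.6). This fold exceeded that of 32.2% of protein-coding genes whose TSS had a peak. An intron 1 peak (120678357 to 120678651), 3738 bp downstream, had a fold of 15.6 and 44 fragments (32.0 to 59.1). The Poisson intervals of these neighbours overlapped almost wholly. No further summit was found over the next 74.9 kb, which cover the remainder of the gene. The outer peaks were shallow, with folds of 7.58 and 6.80 at 11361 and 37479 bp upstream, in RABL3, and 5.10 at 78660 bp downstream, on 8, 7 and 5 fragments. The exception was the peak at the TSS of NDUFB4, a gene of respiratory complex I. Its fold of 22.8, with 55 fragments (41.4 to 71.6), was the highest of the 44 peaks.

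FAH, the last enzyme of the path, occupies, on the plus strand of chromosome 15, positions 80152490 to 80186946 (ENSG00000103876.14) and had the strongest TSS peak of the 5 genes. The peak (80152728 to 80153044) had its summit 69 bp upstream of the TSS at 80152999, a fold of 20.2, a -log10 q of 62.9 and 61 fragments (46.7 to 78.4). The fold exceeded that of 61.8% of protein-coding genes whose TSS had a peak. A second TSS peak (80152425 to 80152608), 395 bp away and 45 bp after the start of another FAH transcript, had a fold of 10.1 and 30 fragments (20.2 to 42.8). The Poisson intervals of the pair did not overlap. Of all protein-coding genes, 14.2% had 2 or more summits in the TSS window.

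FAH was also the gene with the most peaks in its body. These lay in intron 1 at 1542 bp (fold 6.59, 19 fragments), intron 4 at 7816 bp (8.08, 11 fragments), intron 7 at 19042 bp (13.2, 20 fragments) and intron 9 at 20554 bp (8.26, 12 fragments) from the TSS. The intron 4 peak lay 757 bp after the start of another FAH transcript, and the intron 7 peak (80171875 to 80172123) lay 166 bp before one. In all, 12 of 18 annotated FAH starts had a peak within 1000 bp. Both flank peaks were downstream and at no TSS. That at 39403 bp (80192264 to 80192502) had a fold of 21.9, above that of 90.9% of all peaks, and 33 fragments (22.7 to 46.3). That at 55103 bp, within CTXND1, had a fold of 17.6 and 25 fragments (16.2 to 36.9). The downstream peak thus had a slightly higher fold than the FAH TSS peak, on about as many fragments as the weaker TSS peak.

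TDO2, which opens the indole ring of tryptophan, occupies, on the plus strand of chromosome 4, positions 155854738 to 155920406 (ENSG00000151790.9). No peak was called in the gene or within 1000 bp of any of its 8 transcript starts. The nearest summit was 50017 bp downstream of the TSS at 155903696, and 89.8% of protein-coding genes had a closer one. This peak (155953654 to 155953776) lay at the TSS of CTSO, the cathepsin O gene, with a fold of 9.76, a -log10 q of 13.6 and 11 fragments (5.5 to 19.7). The other peak (155809933 to 155810043), 93711 bp upstream, had a fold of 6.80 and 7 fragments (2.8 to 14.4). The stretch between them was 143.7 kb long, more than the same interval at 83.5% of protein-coding genes. Over protein-coding genes this interval had a median of 29.3 kb. Called summits had at least 4 fragments and a -log10 q of at least 3.01, so weaker accessibility at TDO2 was not detectable in this list.

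Across the 44 peaks, the median fold was 9.89, against 10.7 over all peaks. The median summit had 20.5 fragments, against 17 over all peaks, and the median width was 181 bp, against 173 bp. The background at the summits was 1.05, against 0.582 over all peaks. Peaks at the 5 genes were thus close to the middle of the list in height. The higher background was mostly that of the HPD peaks, with a median of 2.58. At the other genes the median background was 0.203 to 0.823. By class, the 4 peaks at the own TSS of these genes had a median fold of 12.3 and 30 to 61 fragments. All peaks at the TSS of any gene, coding or not, had medians of 14.6 and 33 fragments, so the classes differ in definition. The 30 peaks at no TSS had a median fold of 8.94 and 16 fragments, against 9.81 and 14 for all such peaks. They made up 68.2% of the 44 peaks, against 72.2% of all peaks. Chromosome medians of the fragments were 22 on chromosome 16 (TAT), 17 on chromosome 12 (HPD), 16 on chromosomes 3 (HGD) and 15 (FAH) and 15 on chromosome 4 (TDO2).

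The fold did not follow the fragments alone. At 33 fragments there were 4 peaks: FAH downstream (fold 21.9), TAT upstream (14.8), the HPD TSS (9.48) and the RHOF intron beside HPD (9.10). The highest of these folds was 2.41 times the lowest. As the fold is set by the fragments and the background, at equal fragments it falls as the background rises, here from 0.554 at the FAH peak to 2.74 at the RHOF peak. HPD peaks had a median background of 2.58, against 0.689 at TAT, 0.823 at HGD, 0.580 at FAH and 0.203 at TDO2.

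**Figure D2:**
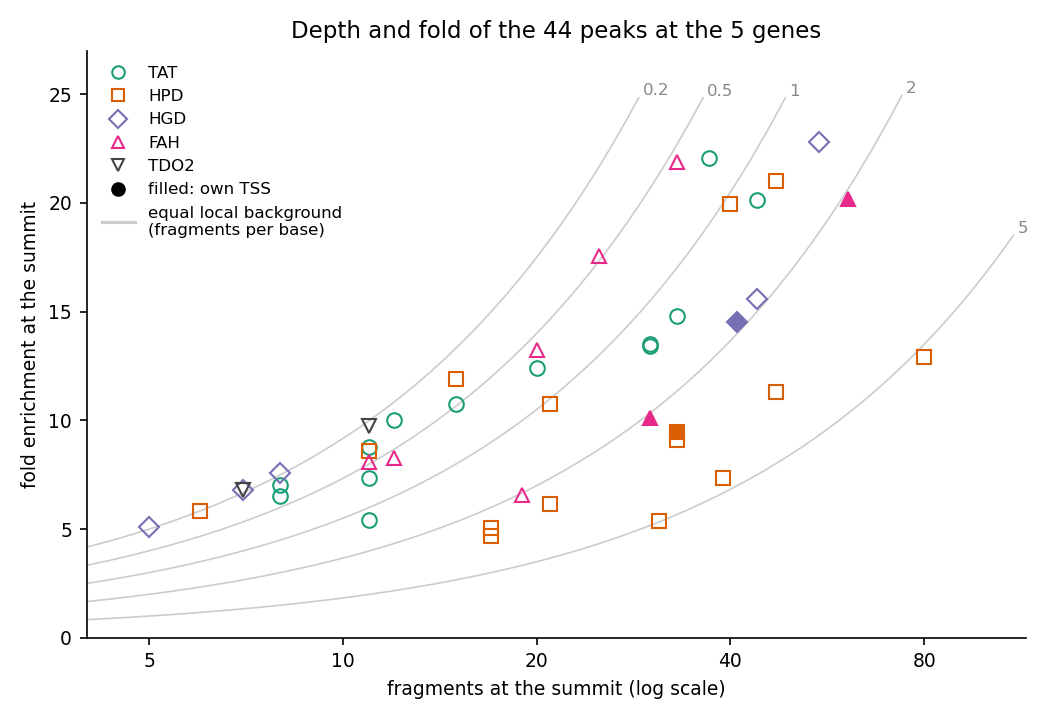
Fold enrichment against fragments at the summit (log axis) for the 44 peaks, by gene, with filled symbols for peaks at the gene's own TSS and grey lines for equal local background in fragments per base. At 33 fragments the fold ranges over 9.10 to 21.9, and HPD peaks lie along the lines of higher background.

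The base composition of the starts differed between the 5 genes. GC content within 500 bp of the TSS was 41.5% at TAT, 55.7% at HPD, 46.8% at HGD, 66.2% at FAH and 36.8% at TDO2, a median of 46.8% against 61.3% over protein-coding genes. The CpG ratio, observed over expected CpG dinucleotides, was 0.119 at TAT, 0.257 at HPD, 0.128 at HGD, 0.632 at FAH and 0.0893 at TDO2, against a median of 0.725. The order of GC content and the order of TSS peaks were not the same: FAH, richest in GC, had the highest TSS fold, but HGD had a higher TSS fold than HPD at a lower GC content. When protein-coding genes were split into 10 near-equal groups by GC content, 9.18% had a TSS peak in the group poorest in GC, which held TAT and TDO2. This share was 32.3% in the group of HGD, 54.2% in that of HPD and 75.0% in that of FAH. The pair without a TSS peak thus lay where a TSS peak was uncommon, and the part of GC content in its absence was not tested.

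**Figure D3:**
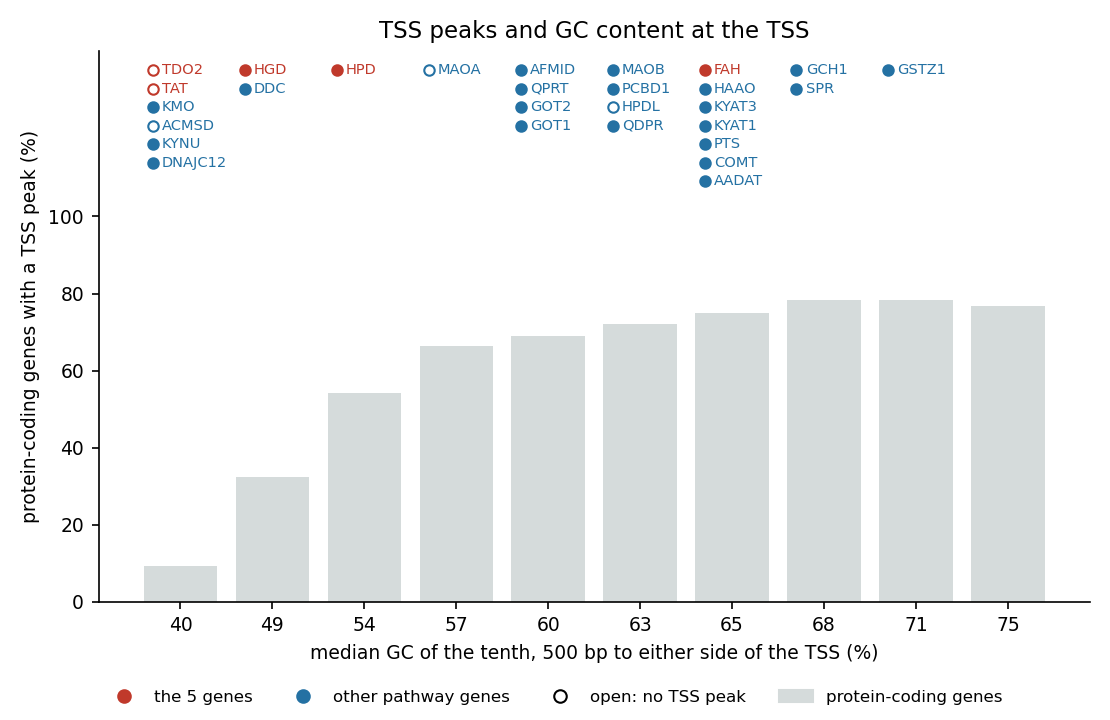
Bars: percentage of protein-coding genes whose TSS had a peak, in 10 groups of GC content within 500 bp of the TSS, labelled with the median GC of each group. Named genes are stacked above the bar of their group at heights that carry no value, with open symbols for genes without a TSS peak; TAT and TDO2 fall in the group where 9.18% of genes have one.

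The 50 bp to either side of each summit were searched on both strands for 16 motifs. A match is a description of letters and not of binding. Matches had to be exact, so sites that vary from these letters were not counted. Among liver factors, HNF4A (CAAAGTCCA) was found at 2 of 44 peaks (4.55%, against 1.41% of all peaks), among them the FAH downstream peak shown above. FOXA (TGTTTAC or TATTTAC) was found at 4 (9.09%, against 7.38%). These were the TAT intron 4 peak, the upstream TAT peak at 46689 bp (33 bp from the summit), the HPD peak at 1505 bp upstream (15 bp) and the HGD peak at 37479 bp upstream (31 bp). CEBP (TTGCNNAA) was found at 1, the HPD peak at 17711 bp upstream, against 6.32% of all peaks. HNF1 (GTTAATNAT) was found at none, against 0.956%. In all, 7 of 44 peaks (15.9%) held a liver factor motif, against 15.2% of all peaks, and away from any TSS 6 of 30 (20.0%) did, against 18.9%. Liver factor motifs were thus about as common at these genes as elsewhere in the list.

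Of the motifs of hormone and second messenger signalling, that of the glucocorticoid receptor (ACANNNTGT) and the cyclic AMP element (TGACGTCA) were found at none of the 44 peaks, against 2.62% and 0.554% of all peaks. The nuclear receptor motif AGGTCA was found at 7 (15.9%, against 10.0%), 4 of them at TAT. AP-1 (TGACTCA), the site of FOS and JUN, was found at 3 (6.82%, against 4.39%). The promoter motifs were found mainly at HPD and its neighbours, with NFY (CCAAT) at 9 peaks (20.5%, against 14.3%), SP/KLF (GGGCGG) at 7 (15.9%, against 17.9%) and ETS (CCGGAA) at 5 (11.4%, against 5.40%). SP/KLF matches were confined to the TSS peaks of FAH and to flank peaks of HPD that lay at the TSS of other genes. The remaining motifs were CTCF (CNAGGNGGC) at 3 (6.82%, against 7.09%), E-box (CACGTG) at 2 (4.55%, against 2.81%) and TEAD (CATTCC) at 1 (2.27%, against 8.22%). Matches to AGATAA, bound by GATA factors, and to GCGCATGCG, bound by NRF1, were found at none, against 4.57% and 0.549%. No match of any kind was found at 10 of the 44 peaks, among them the HPD TSS and the HGD intron 1 peak. GC content within 100 bp of the summits was 54.0% at the median, against 53.7% over all peaks.

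**Figure D4:**
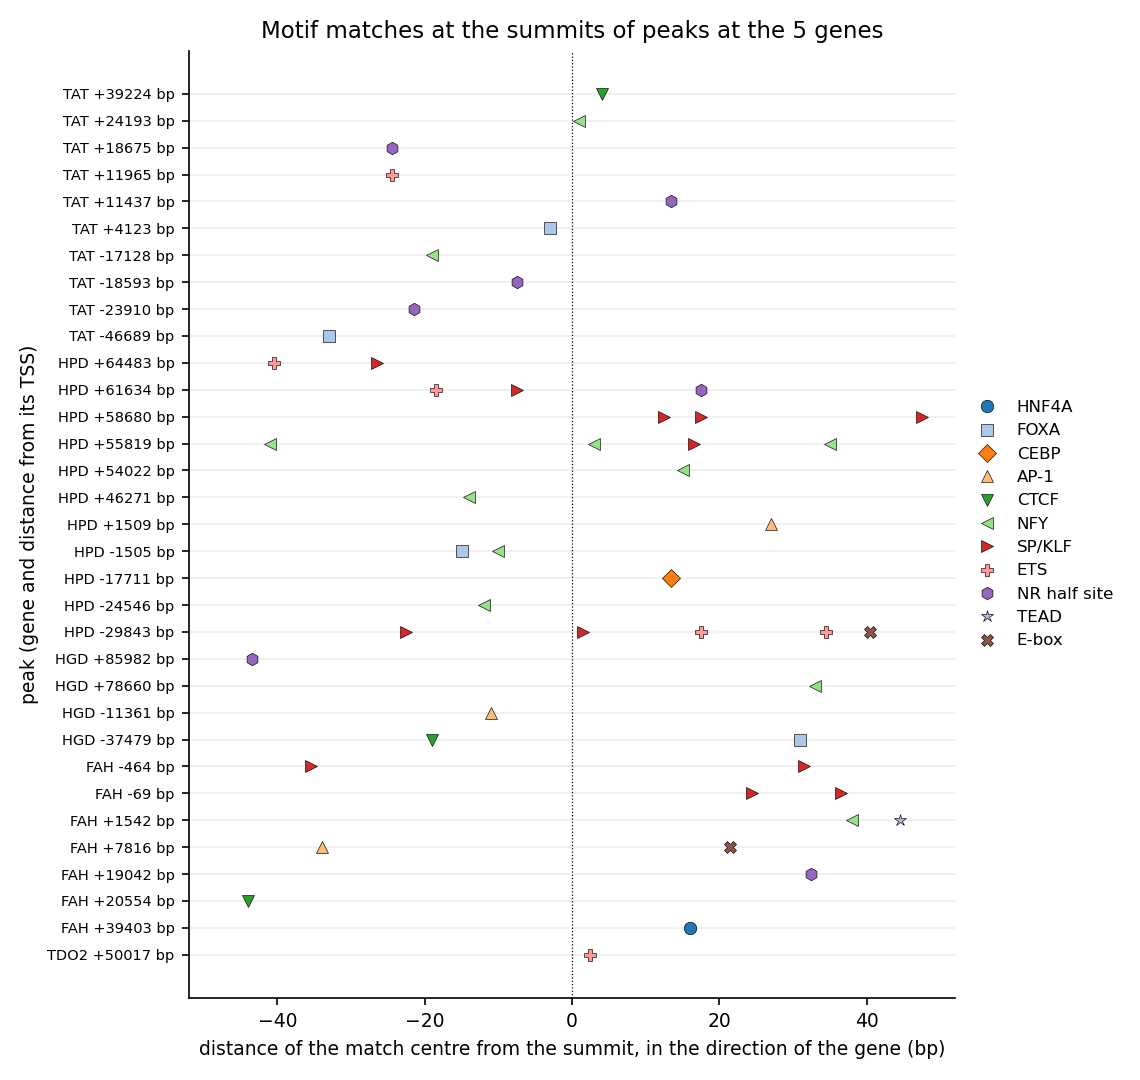
Position of each motif match relative to the summit (bp, in the direction of the gene) for peaks with a match, named by gene and distance from its TSS (the HGD TSS peak is not shown). FOXA and HNF4A matches lie 3 to 33 bp from their summits. SP/KLF matches occur only at FAH TSS peaks and at HPD flank peaks that lie at the TSS of other genes.

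A list of 23 other genes of the pathway was set beside the 5, with no test of the difference. Of these 23, 20 had a TSS peak (87.0%, exact binomial 95% interval 66.4 to 97.2%), against 61.0% of protein-coding genes. Their median TSS fold was 18.0, against 17.9 over protein-coding genes whose TSS had a peak, while HPD, HGD and FAH had 9.48, 14.5 and 20.2. All 6 genes of the cofactor tetrahydrobiopterin and its partner co-chaperone had one. These included QDPR (fold 25.6, 87 fragments), GCH1 (23.9), PTS (18.5) and PCBD1 (18.4), which recycle or make the cofactor. Of 8 further genes of tyrosine metabolism, 6 had a TSS peak, and the aspartate aminotransferases GOT2 (33.2, 94 fragments) and GOT1 (24.3) had the highest folds. DDC had the lowest, 4.55 on 11 fragments, above that of only 0.188% of protein-coding genes whose TSS had a peak. GSTZ1, the isomerase between HGD and FAH, had 3 summits in its TSS window, the strongest with a fold of 14.8. Among 9 genes downstream of TDO2, 8 had a TSS peak, led by AFMID (26.9), the kynurenine aminotransferases AADAT (23.0) and KYAT3 (21.8), and HAAO (19.9), a dioxygenase on the way to NAD. AFMID removes the formyl group from the product of TDO2, and its TSS had a strong peak where that of TDO2 had none. Whether the TSS peaks of these other pathway genes also lay at the start of a neighbouring gene was not examined.

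The 3 pathway genes without a TSS peak were HPDL, MAOA and ACMSD. HPDL, a homologue of HPD, had its nearest summit 9226 bp away. MAOA, a monoamine oxidase, had its nearest summit 1350 bp away and 4 peaks in its body. Of its 10 annotated transcript starts, 1 had a peak within 1000 bp. ACMSD, which diverts kynurenine products from NAD synthesis, had its nearest summit 55661 bp away and a GC content of 33.5% at the TSS. KYNU and DNAJC12, in the same group of lowest GC content as TAT and TDO2, had TSS peaks with folds of 17.6 and 16.5, and KMO had one of 10.8 with its summit 943 bp from the TSS. Low GC content at the start was thus found with and without a TSS peak in this pathway.

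**Figure D5:**
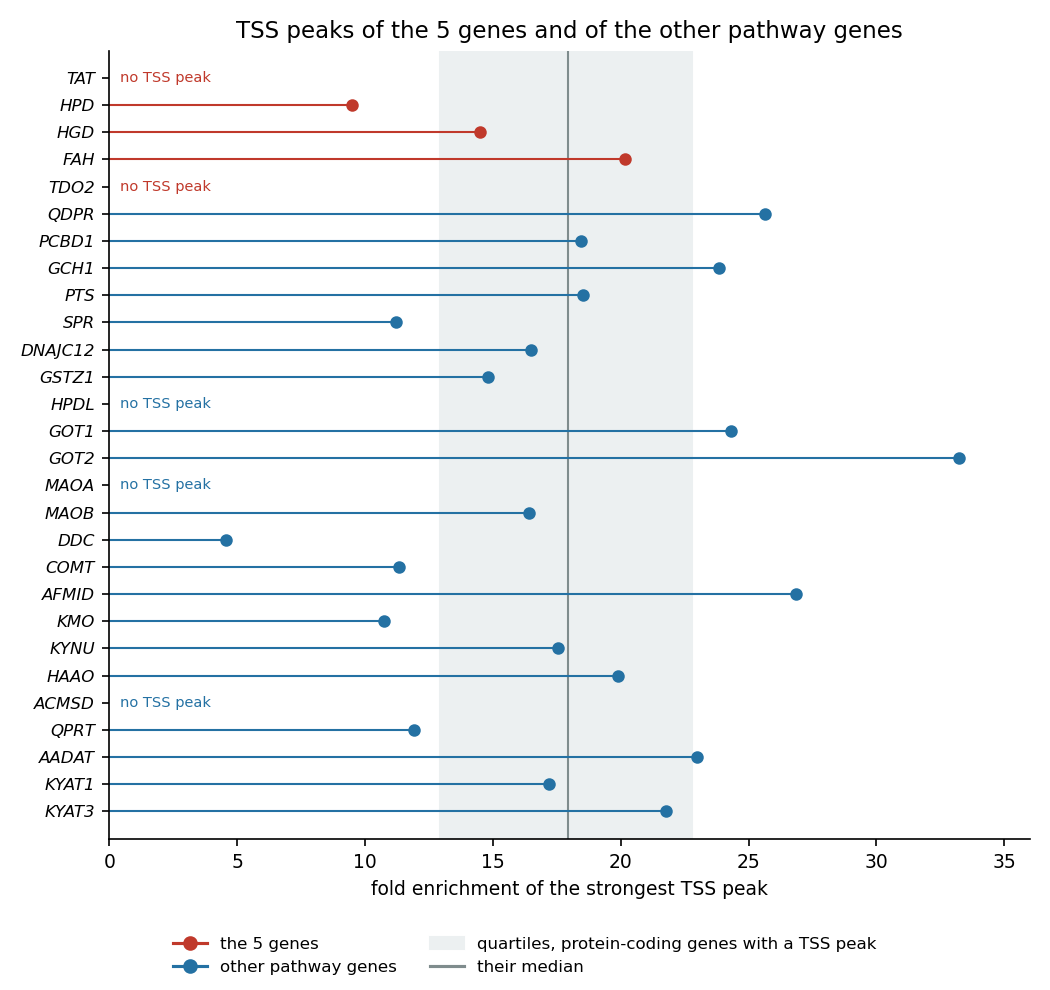
Fold enrichment of the strongest TSS peak for the 5 genes (red) and for 23 other genes of the pathway (blue), with the median (17.9, line) and quartiles (shaded) of protein-coding genes whose TSS had a peak. HPD lies below the shaded range, HGD and FAH lie within it, and GOT2 has the highest fold of 33.2.

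As a check of the cells, 18 of 20 hepatocyte marker genes had a TSS peak, ALB and FGB being the exceptions. None of 5 leukocyte, 4 endothelial and 4 stellate cell or fibroblast markers had one.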

How the data were processed

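The authors ran the mapping workflow of snakePipes: cutadapt for trimming, Bowtie2 for alignment to GRCh38, a filter for uniquely mapped pairs and samtools to drop duplicates. Peaks were called from its output in a separate step with MACS2, here for 1 library without pooling. The methods give standard parameters for the peak calls. The MACS2 version, and whether read ends were shifted to the Tn5 cut site, are not given in the sources used here. The names of the peaks point to a short-fragment alignment, which may be a subset of the library. The authors deposited, for each peak, a score (10 times the -log10 q-value), a fold ratio at the summit, the -log10 p-value and -log10 q-value of the caller, and the summit position. The total depth of the library was not used here, and depth is given as fragments at each summit.

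Peaks were placed on GENCODE 44 genes by summit. Summit fragments and background were solved from the deposited fold, (fragments + 1)/(background + 1), and the Poisson -log10 p. This gave whole numbers within 0.01 for 99.7% of peaks. The solution and the placement were tested on simulated data. The 154 peaks outside chromosomes 1-22, X and Y were left out. All other peaks ended inside the hg38 sequence of the same name, from which bases were read. The 5 genes, the other gene lists and the motifs were chosen with earlier results of these data known. A pathway gene of the list and a sequence are not reported here. All 5 genes were named with their TSS and gene body peaks and their nearest and strongest flank peaks. Neighbours with a flank peak at their TSS, the 10 other pathway genes of highest TSS fold and those without a TSS peak were also named. GSTZ1, DDC, KYNU, DNAJC12 and KMO were added after their values were seen. With 1 library no test was made, and intervals are exact at a 95% level and cover counting error only. Alternatives were other -log10 q limits, TSS windows, TSS definitions, flank widths, motif windows and fragment tolerances, overlap in place of the summit, and leaving out peaks at the TSS of other genes. Software was Python 3.11.15 with pysam 0.24.0, matplotlib 3.10.9, scipy 1.17.1, pandas 2.3.3 and numpy 2.4.6.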

Additional observations from a re-analysis of the deposited data

How the results depend on the processing

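Of 53 values recomputed under other settings, 48 stayed within the spread set for them (1.5 times for counts). Some of the 48 could not change by construction, such as TSS counts under another flank width or all peaks under another TSS window. Among protein-coding genes, those whose TSS had a peak (61.0%) became 57.8% with a -log10 q of at least 10, 58.3% and 65.4% with TSS windows of 500 and 2500 bp, and 66.6% with the start of any transcript. The 44 peaks at the 5 genes became 26 with flanks of 25 kb and 66 with flanks of 100 kb, and 32 with a -log10 q of at least 10. The 20 other pathway genes with a TSS peak became 19 with a -log10 q of at least 5 or 10 and with the 500 bp window. They became 21 with the 2500 bp window and with the start of any transcript. A TSS peak was found at 3 of the 5 genes under each -log10 q limit, TSS window and definition and the overlap rule. Gene body peaks were found at 3 with the 2500 bp window and at 4 under the others of these. Flank peaks were found at 4 with flanks of 25 kb, and at 5 with flanks of 100 kb and under all of these settings. With 1 library, no replicate could be left out. No paired analysis was possible because only 1 library was analysed.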
